A study of Mus musculus with 40 samples.

Results

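The H3K27ac peaks at 3 white adipocyte genes, Galnt9, Pnp2 and Slc6a6, were followed while cultured preadipocytes of WT and DKO mice were taken through a browning differentiation. The 3 genes were selected on their own H3K27ac peaks in these libraries, by genotype and day, out of 21911 protein-coding genes, of which 15183 held peaks in at least 3 libraries. Each gene was read over its annotated span and the 5 kb upstream of its start, or the 20 kb upstream for Galnt9. The members were thus chosen by the WT and DKO values themselves, on each day, so the differences between genotypes and between days at these genes are described here with no test.

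The cells were preadipocytes from the inguinal white adipose tissue (iWAT) of mice of 8 to 12 weeks. The mice were either C57BL/6 wild type (WT) or of a B6.Cg line lacking HMGN1 and HMGN2 (DKO, for double knockout). HMGN1 and HMGN2 are a pair of proteins that bind nucleosomes. Line and genotype go together here, so that their effects cannot be told apart. Both genotypes received the same cocktail of insulin, dexamethasone, IBMX, T3 and rosiglitazone, followed by insulin and T3. H3K27ac ChIP-seq libraries were made before induction (day 0, preadipocytes) and on days 3, 6 and 9, with 3 libraries in each of the 8 groups. DKO cells lacked both proteins from before differentiation, so that an effect on the preadipocyte and one on its conversion cannot be told apart. The study describes the 3 libraries of a group as biological replicates. The labels do not say whether they came from separate cultures or animals. The p-values behind the calls over all genes therefore measure only the spread between libraries.

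H3K27ac is an acetylation of histone H3 that marks active promoters and enhancers, and long clusters of it tend to lie over genes that give a cell type its identity. Galnt9 encodes an enzyme of the Golgi that starts mucin-type O-glycosylation by attaching N-acetylgalactosamine to serine or threonine. Pnp2 encodes a purine nucleoside phosphorylase, a close relative of Pnp that splits inosine and guanosine into a base and a sugar phosphate, and Slc6a6 encodes the sodium- and chloride-dependent transporter that takes taurine into cells.

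The 3 loci held 60 of the 169358 merged regions, a merged region being the stretch formed by peaks of any of the 24 libraries that overlapped by at least 1 bp. Galnt9 held 24 of them, Pnp2 held 2 and Slc6a6 held 34. The following stretches are shown because the results turn on them. They are given 5′ to 3′ on the plus strand of GRCm38 (mm10), the strand of all 3 genes, with CG pairs and the AP-1 letters TGACTCA in capitals. The 2 upstream stretches of Galnt9 lie under the peaks that separate the genotypes (chr5:110540698-110540897 and chr5:110541352-110541551), and the internal one lies under the strongest peak of the gene (chr5:110598644-110598843). Of Pnp2, the first stretch was under a peak in each of the 12 WT libraries and in no DKO library (chr14:50956459-50956536), and the second was under a peak in 9 or 10 DKO libraries as well (chr14:50956839-50957083). The stretch of Slc6a6 lies under the strongest peak at its start (chr6:91684885-91685084). None of the 6 stretches overlapped an annotated exon of its own gene or of Pnp. For the first of Pnp2 this holds by construction, since it is the part past the exons of a 475-bp run described below. Exons of other genes were not checked.
Galnt9 upstream a: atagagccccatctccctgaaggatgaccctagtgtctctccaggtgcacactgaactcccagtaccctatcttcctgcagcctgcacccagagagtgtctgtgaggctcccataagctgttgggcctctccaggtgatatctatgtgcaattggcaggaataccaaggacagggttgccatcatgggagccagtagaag
Galnt9 upstream b: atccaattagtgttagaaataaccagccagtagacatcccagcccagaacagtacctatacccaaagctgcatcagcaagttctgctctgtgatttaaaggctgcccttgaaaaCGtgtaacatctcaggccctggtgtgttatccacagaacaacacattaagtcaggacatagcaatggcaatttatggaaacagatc
Galnt9 internal: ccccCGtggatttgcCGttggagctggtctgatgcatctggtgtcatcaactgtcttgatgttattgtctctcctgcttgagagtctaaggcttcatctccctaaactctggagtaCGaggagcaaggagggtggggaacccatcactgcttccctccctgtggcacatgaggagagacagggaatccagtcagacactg
Pnp2 lost: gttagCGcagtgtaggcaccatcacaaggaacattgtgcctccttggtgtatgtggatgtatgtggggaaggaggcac
Pnp2 kept: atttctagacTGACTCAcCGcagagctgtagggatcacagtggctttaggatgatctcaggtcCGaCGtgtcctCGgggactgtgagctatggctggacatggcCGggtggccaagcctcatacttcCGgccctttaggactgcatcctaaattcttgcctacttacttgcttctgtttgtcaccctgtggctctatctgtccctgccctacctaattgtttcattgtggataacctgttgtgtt
Slc6a6 start: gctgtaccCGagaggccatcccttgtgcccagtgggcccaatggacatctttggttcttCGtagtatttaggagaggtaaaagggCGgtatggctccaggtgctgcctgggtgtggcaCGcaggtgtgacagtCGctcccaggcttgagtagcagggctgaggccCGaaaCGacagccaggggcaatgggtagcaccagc

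The libraries differed in how much was called. They held between 47448 and 115923 peaks over 20.7 to 96.4 Mb, and on day 6 the covered length was 55.5 to 60.4 Mb in WT and 20.7 to 36.3 Mb in DKO libraries. DKO day 0 replicate 2 stood apart, with a narrowest peak of 440 bp against 155 to 165 bp in the other libraries and the longest covered length of all. The fold of a peak is its height over the local background. The highest fold of WT day 3 replicate 3 was 159, against 33.2 to 60.6 in the others, and DKO day 6 replicate 3 had the fewest peaks. Hmgn2 was under a peak in 12 of 12 WT and 0 of 12 DKO libraries, whereas Hmgn1 was under a peak in all 24 libraries. Of the cell type markers, the summed covered length of 6 adipocyte genes went from 9.07 to 11.5 kb in the WT libraries of day 0 to 47.2 to 56.5 kb in those of day 9, and from 11.5 to 25.7 kb to 71.8 to 76.5 kb in the DKO libraries of these days. Ucp1, the defining gene of brown and beige fat, had no peak in any library. The summed length of the 5 brown adipocyte markers, Ucp1 included, was 0.679 to 1.36 kb on day 0 and 2.54 to 3.91 kb on day 9 in WT. In DKO libraries it was 0.305 to 2.54 kb and 7.385 to 9.05 kb on these days. Of the 4 with peaks in at least 3 libraries, 3 were higher in DKO without overlap on day 9, as 29.3% of all genes were. Of the white fat genes, Tcf21 and Slc7a10 had no peak in any library and Lep had one in 1 library.

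The length of each gene under peaks, in kb, was compared first. Galnt9 and Pnp2 lay under less H3K27ac in DKO than in WT cells at every day, with no overlap between the libraries, and Slc6a6 did so on day 6 and at no other day. At day 6, the DKO mean was 7.45% of the WT mean at Galnt9, 3.5% at Pnp2 and 44.5% at Slc6a6. Day 6 is the day at which most genes behaved in this way, and the other days set Galnt9 and Pnp2 apart from Slc6a6.

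**Figure D1:**
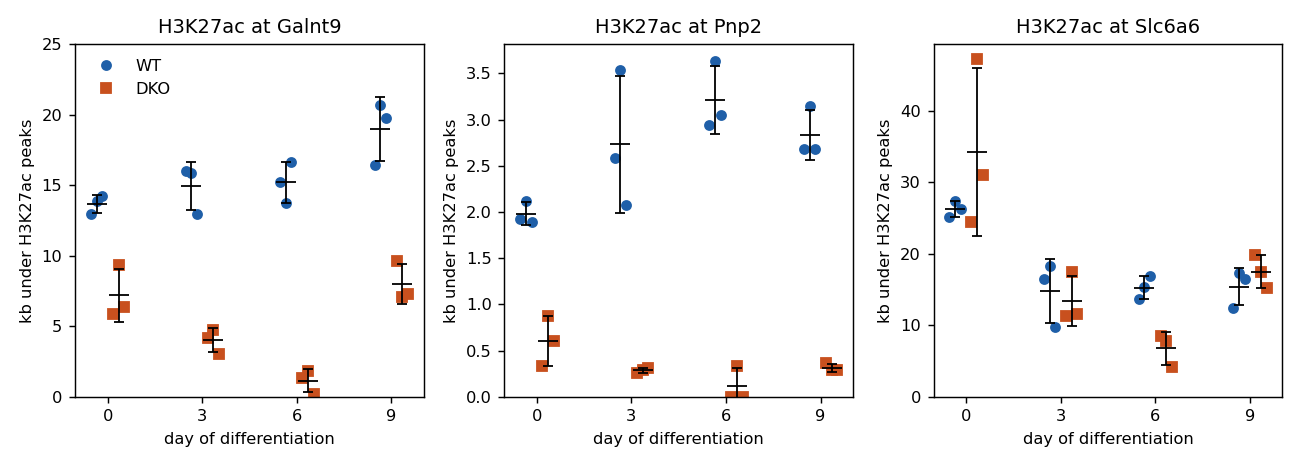
Length under H3K27ac peaks in kb (vertical axis) at Galnt9, Pnp2 and Slc6a6 by day (horizontal axis), with 1 point per library, WT and DKO in separate colours, and mean ± SD over the 3 libraries of a group as bars. All DKO points of Galnt9 and Pnp2 lie under all WT points of the same day, and those of Slc6a6 do so on day 6 only.

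At Galnt9 (ENSMUSG00000033316.14, chr5:110544355-110621380, plus strand), the covered length in WT replicates 1, 2 and 3 was 12.9, 13.9 and 14.2 kb on day 0, 16, 15.8 and 13 kb on day 3, 15.2, 13.7 and 16.7 kb on day 6, and 16.4, 20.7 and 19.7 kb on day 9. In DKO it was 5.85, 9.35 and 6.38 kb on day 0, 4.19, 4.76 and 3.07 kb on day 3, 1.36, 1.81 and 0.229 kb on day 6, and 9.64, 7.05 and 7.31 kb on day 9. The lowest WT library at any day, with 12.9 kb, was thus above the highest DKO library at any day, with 9.64 kb. The WT mean was 13.7 ± 0.655 kb against 7.19 ± 1.88 kb in DKO on day 0 (SD, n = 3), a 1.90-fold difference, and 15.2 ± 1.47 kb against 1.13 ± 0.813 kb on day 6, a 13.4-fold difference. The differences of DKO minus WT were −6.48, −10.9, −14.1 and −11.0 kb on days 0, 3, 6 and 9.

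At Pnp2 (ENSMUSG00000068417.8, chr14:50955992-50964749, plus strand), WT libraries held 1.93, 2.12 and 1.89 kb on day 0, 2.58, 3.53 and 2.08 kb on day 3, 2.94, 3.63 and 3.05 kb on day 6, and 2.68, 3.15 and 2.68 kb on day 9. DKO libraries held 0.333, 0.873 and 0.600 kb on day 0, 0.260, 0.294 and 0.308 kb on day 3, 0, 0.337 and 0 kb on day 6, and 0.362, 0.288 and 0.285 kb on day 9. Peaks were thus short but present in DKO cells at 3 of the 4 days, and 2 of the 3 DKO libraries of day 6 held none. The mean difference between genotypes was −1.38 kb on day 0 (1.98 ± 0.123 kb in WT, 0.602 ± 0.270 kb in DKO, SD, n = 3), −2.44 kb on day 3, −3.10 kb on day 6 and −2.53 kb on day 9.

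At Slc6a6 (ENSMUSG00000030096.8, chr6:91684053-91759066, plus strand), WT libraries held 25.2, 27.3 and 26.2 kb on day 0, 16.5, 18.3 and 9.80 kb on day 3, 13.6, 15.3 and 16.8 kb on day 6, and 12.4, 17.3 and 16.5 kb on day 9. DKO libraries held 24.4, 47.2 and 31 kb on day 0, 11.2, 17.5 and 11.5 kb on day 3, 8.47, 7.78 and 4.13 kb on day 6, and 19.9, 17.4 and 15.3 kb on day 9. The libraries of the genotypes overlapped on days 0, 3 and 9 and not on day 6, when the mean was 15.3 ± 1.60 kb in WT and 6.80 ± 2.33 kb in DKO (SD, n = 3). The highest value, 47.2 kb, was that of DKO day 0 replicate 2, the library with wide peaks, and without it the day 0 difference of DKO minus WT was 1.46 kb instead of 7.96 kb.

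Against the whole set of 15183 genes, the 3 loci took different places. DKO libraries lay below WT libraries without overlap at 0.705% of genes on day 0, 10.8% on day 3, 59.6% on day 6 and 2.08% on day 9, and Galnt9 and Pnp2 were among these at each day. At day 6 the share is a majority of genes, so that the place of Slc6a6 among them is that of most genes. DKO libraries lay above WT libraries without overlap at 18.4%, 0.856%, 0.0856% and 29.3% of genes at the 4 days, and none of the 3 genes was among them. Genes lower in DKO at all 4 days numbered 10 (0.0659%), namely 4930503E14Rik, Car10, Galnt9, Glra1, Gm49342, Hmgn2, Msi1, Nrg3, Pnp2 and Sfi1, and 0 genes (0.0%) were higher at all 4 days. These counts depended on the processing, with 86 lower and 52 higher genes after scaling to total covered length and 3 and 3 over the 20000 peaks of highest −log10 q, Galnt9 and Pnp2 being among the lower genes in both. Gm49342 spans Pnp2 and shares its peaks, and Hmgn2 is a targeted gene.

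Ordered by the size of the difference, Galnt9 was the lowest of all genes on day 9, rank 2 on day 0, rank 37 on day 3 and rank 152 on day 6. In this order Galnt9 counts with 20 kb upstream and every other gene with 5 kb. With 5 kb upstream its differences were −6.14, −10.65, −13.5 and −9.82 kb on days 0, 3, 6 and 9, and its ranks are not given. Pnp2, which is much shorter, took ranks 24, 569, 1374 and 17 on days 0, 3, 6 and 9. Slc6a6 took rank 15006 on day 0 and rank 14307 on day 9, near the upper end, and ranks 1131 and 395 on days 3 and 6. The median difference over all genes was 0.42, −0.183, −0.532 and 0.226 kb at the 4 days.

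**Figure D2:**
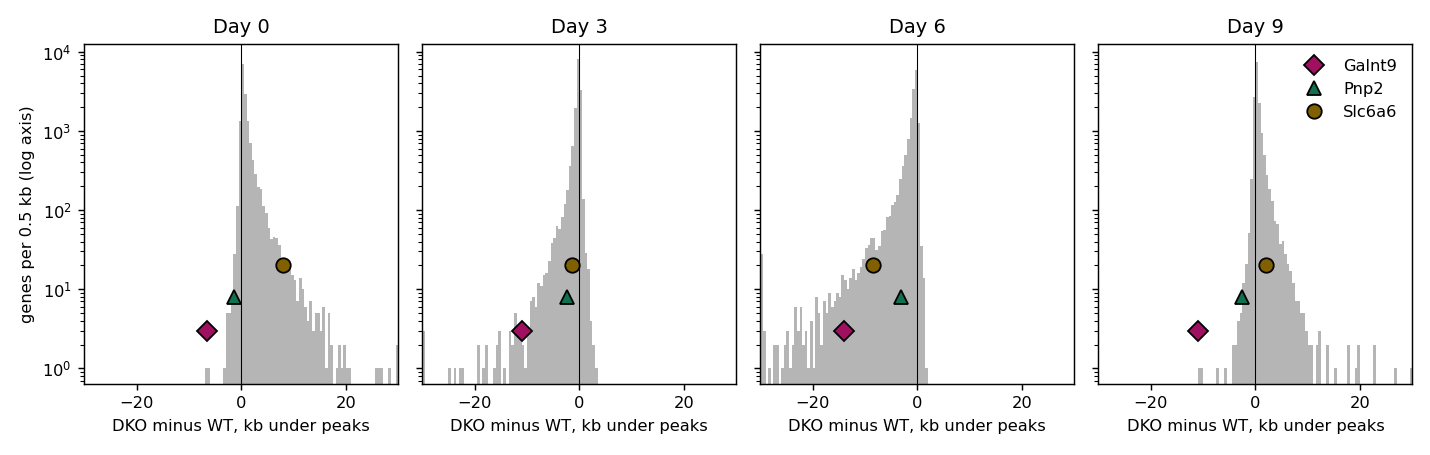
Number of genes (vertical axis, log scale) by the difference of DKO minus WT mean covered length in kb (horizontal axis, drawn to 30 kb on either side of 0), 1 panel per day, with the 3 genes marked at their differences; the height of the marks has no meaning. Galnt9 lies at the lower end at each day, at −6.48, −10.9, −14.1 and −11.0 kb, whereas Slc6a6 moves from 7.96 kb on day 0 to −8.47 kb on day 6 and 2.11 kb on day 9.

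The covered length of DKO libraries on day 6 was low over the whole genome, and the values were therefore also scaled to the same total covered length per library. Of the 15183 genes, DKO libraries then lay below WT without overlap at 2185 and above at 5733 on day 6, against 9054 and 13 before scaling. Galnt9 remained lower in DKO without overlap at each day, at 13.4 kb in WT and 1.68 kb in DKO on day 6, and so did Pnp2, at 2.84 and 0.157 kb. Slc6a6 remained lower on day 6, where WT libraries lay at 12.3 to 14.1 kb and DKO libraries at 10.1 to 12.1 kb, but was higher in DKO on day 3, where they lay at 16 to 17.5 kb and 17.7 to 21.2 kb. Over all genes, the scaled counts of single days are given for day 6 only. The scaled calls of the other days, that of Slc6a6 on day 3 included, thus stand without such a background. What part the lower total of DKO day 6 libraries had in the unscaled values was not tested.

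The days were then set side by side within each genotype, with the overlap of their libraries. At Galnt9, the DKO libraries of day 3 lay below those of day 0 without overlap, at 0.557 of their mean, those of day 6 lay below those of day 3, at 0.282 of their mean, and those of day 9 lay 7.07-fold above those of day 6. Their day 9 mean, 8.0 ± 1.43 kb, lay close to that of day 0, 7.19 ± 1.88 kb, and these libraries overlapped. In WT cells no neighbouring pair of days was free of overlap at Galnt9, while day 9 lay above day 0, with 19.0 ± 2.26 kb against 13.7 ± 0.655 kb (1.39-fold). In order of mean, the Galnt9 groups ran WT day 9, 6, 3 and 0, then DKO day 9, 0, 3 and 6. Breaks without overlap lay between WT day 0 and DKO day 9, between DKO days 0 and 3, and between DKO days 3 and 6. Scaled to the same total covered length, DKO libraries lay at 4.92 to 6.22 kb on day 0 and 4.70 to 7.11 kb on day 3, with overlap. On days 6 and 9 they lay at 0.561 to 2.52 and 5.62 to 7.10 kb, and day 6 stayed below days 3 and 9. The scaled WT libraries lay at 12.9 to 14.2, 15.2 to 21.2, 12.5 to 14.0 and 17.1 to 17.6 kb. Their neighbouring days did not overlap.

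At Pnp2, the DKO libraries of day 3 lay below those of day 0 without overlap, at 0.477 of their mean, and the other steps between neighbouring days overlapped. In WT cells the libraries of days 6 and 9 lay above those of day 0 without overlap, 1.62-fold and 1.43-fold. In order of mean the groups ran WT days 6, 9, 3 and 0, then DKO days 0, 9, 3 and 6, with a break between the genotypes and overlap between all other neighbours. After scaling to total covered length, the DKO libraries of days 0 and 3 overlapped, at 0.354 to 0.525 and 0.356 to 0.472 kb. The scaled WT libraries of days 6 and 9 lay at 2.56 to 3.32 and 2.32 to 2.82 kb. They stayed above those of day 0, at 1.88 to 2.12 kb.

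The largest step of Slc6a6 in kb lay between days 0 and 3 in both genotypes. The day 3 mean was 0.566 of the day 0 mean in WT and 0.392 in DKO cells, both without overlap. In WT the means then lay between 14.9 and 15.4 kb, with overlap at each step. DKO libraries of day 6 lay at 0.507 of the day 3 mean and those of day 9 2.58-fold above those of day 6, both without overlap. In order of mean the groups ran DKO day 0 and WT day 0, which overlapped, then DKO day 9, WT days 9, 6 and 3 and DKO day 3, each of which overlapped the next, and last DKO day 6. Markers of other cell types differed between the same groups. The summed length of the 3 immune markers was 8.22 to 8.83 kb on day 0 and 3.79 to 7.82 kb on day 3 for WT. For DKO it was 11.3 to 24 kb and 6.31 to 7.27 kb. All 3 markers were higher in DKO on day 0 without overlap, as 18.4% of all genes were. The sum of the 3 endothelial markers was 5.77 to 6.03 kb and 1.82 to 4.77 kb for WT. For DKO it was 6.30 to 13 kb and 2.28 to 2.79 kb on these days. The sum of the 5 preadipocyte markers was 18.4 to 20.9 kb and 15.5 to 20.7 kb for WT. For DKO it was 17.9 to 25.4 kb and 14.3 to 18.3 kb. On day 6 it was 21.8 to 22.1 kb for WT and 9.58 to 12.6 kb for DKO libraries. On that day 59.6% of all genes were lower in DKO without overlap. The covered length over the whole genome was then 20.7 to 36.3 Mb in DKO and 55.5 to 60.4 Mb in WT libraries. Bulk libraries do not tell fewer cells of a type from less H3K27ac per cell, and what part the cell make-up had was not tested.

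The peaks themselves show where along each gene the values arose. Galnt9 has 2 sets of starts. The longest transcript begins at the gene start, and 2 shorter ones begin inside the gene, at positions 110603522 and 110603521. Divided along the locus after the peaks were seen, the part upstream of the gene start held 1.53 ± 0.196, 2.44 ± 0.283, 2.37 ± 0.219 and 3.14 ± 0.986 kb in WT on days 0, 3, 6 and 9 (SD, n = 3). In DKO it held 0 kb in 11 of 12 libraries and 0.206 kb in DKO day 3 replicate 2. The part from 50 kb into the gene to its end, which holds the internal starts, kept 11.7 to 12.4 kb on average in WT at the 4 days, against 7.14 ± 1.92, 3.94 ± 0.776, 1.13 ± 0.813 and 7.51 ± 1.46 kb in DKO. At day 9 the first 50 kb of the gene, between the 2 sets of starts, held 3.41 ± 0.637 kb in WT and 0.482 ± 0.0360 kb in DKO.

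**Figure D3:**
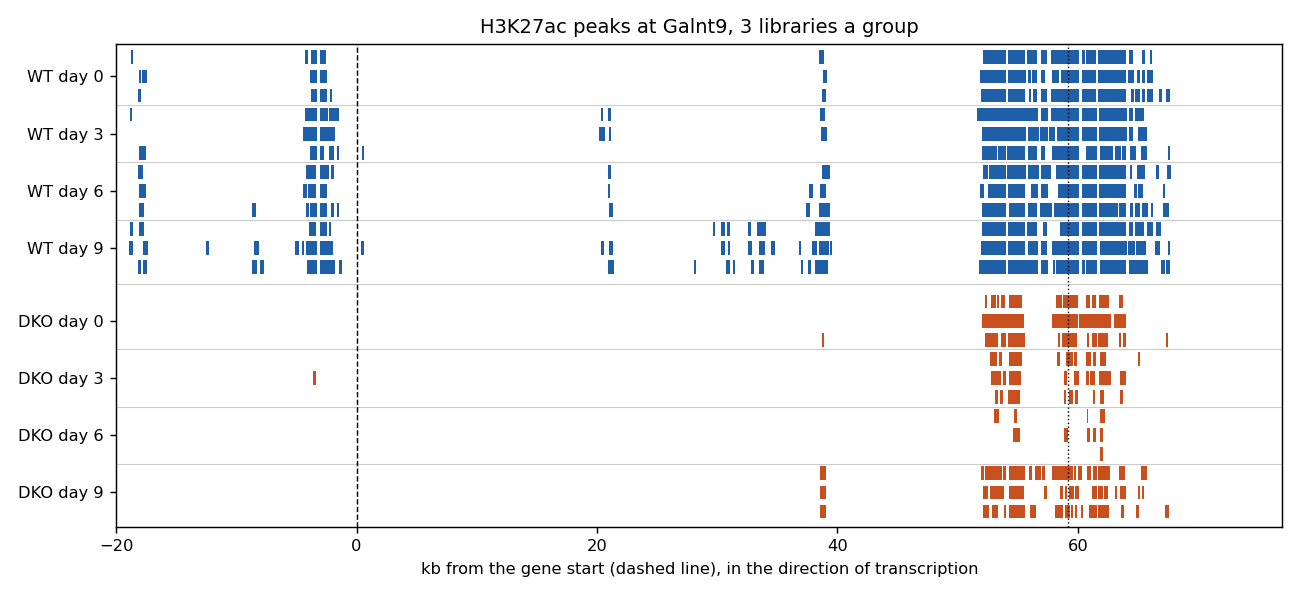
Peaks at Galnt9 along the locus, in kb from the gene start (horizontal axis), 1 row per library ordered by genotype and day; the dotted line marks the internal start. Rows of WT libraries hold peaks upstream of the start that are absent from 11 of 12 DKO rows, and the block around the internal start is present in all 24 rows and shortest in those of DKO day 6.

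Of the 24 regions of Galnt9, 23 were called in more WT than DKO libraries, 0 in more DKO libraries and 1 in all 24. WT libraries alone held 19 of them. Of the 24, 14 were called in at least 3 libraries and 7 in 1 library only. How many of all regions were called in more WT libraries, or in WT libraries alone, was not counted. Counted by day, the regions with a peak in each of the 3 WT libraries and in no DKO library numbered 3, 1, 7 and 6 on days 0, 3, 6 and 9, where 0.594%, 0.9%, 4.55% and 0.386% of all regions were. The reverse, 3 of 3 DKO and 0 of 3 WT, held for none of its regions at any day, and for 0.745%, 0.098%, 0.039% and 1.46% of all regions.

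Near the start the contrast lay in 2 upstream regions, while most of the difference in kb on day 6 lay in the internal region described further on. The region at chr5:110541279-110543109, from 3.08 to 1.25 kb before the start, was called in every one of the 12 WT libraries and in none of the 12 DKO libraries. Of all 169358 regions, 7 (0.00413%) showed this, and 2 of the 7 lay at Hmgn2. Taken at the peak of highest −log10 q in each WT library, its fold ranged from 5.71 in day 0 replicate 2 to 13.4 in day 3 replicate 1. These peaks had 23 to 53 reads at the summit in the 11 libraries whose reads could be recovered. The summits fell within 135 bp of each other in the 12 WT libraries.

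The region at chr5:110539801-110541091, from 4.55 to 3.26 kb before the start, was called in 12 WT libraries and in 1 DKO library, day 3 replicate 2. WT folds ran from 6.42 to 14.5 and the single DKO fold was 4.50, with 26 to 52 and 11 reads at the summit. The DKO peak was 206 bp long and stood at 84.1% of its list when peaks were ranked by q, where 100% is the weakest, whereas the WT peaks stood at 6.79% to 25.8%. Regions called in 12 WT and at most 1 DKO libraries numbered 12 in all (0.00709%). A further upstream region, chr5:110526168-110526980, about 18 kb before the start, was called in 9 WT and 0 DKO libraries, in 2, 1, 3 and 3 of the 3 WT libraries on days 0, 3, 6 and 9.

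The gene start itself was little acetylated. No region held the first base of Galnt9, and the nearest inside the gene, chr5:110544722-110545006, was called in 2 WT and 0 DKO libraries. The internal region chr5:110596005-110608438, 12.4 kb long and holding both internal starts, was in contrast called in all 24 libraries, as 9.08% of all regions were. It covered 10.3, 10.7, 10.3 and 10.4 kb on average in WT on days 0, 3, 6 and 9, and 7.08, 3.88, 1.13 and 7.04 kb in DKO (group means of 10337, 10674, 10278 and 10371 bp, and 7077, 3876, 1132 and 7035 bp).

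The best fold at Galnt9, read from the same peaks, was lower in DKO cells without overlap at each day. The share of all genes for which this held was not counted. In WT the best fold at Galnt9 per library was 14.7 to 17.2 on day 0, 14.6 to 20.9 on day 3, 15.9 to 17.9 on day 6 and 13.8 to 15.5 on day 9. In DKO it was 9.42 to 14.3, 6.43 to 7.91, 4.49 to 6.25 and 7.98 to 12.2. The strongest DKO peaks of day 6 rested on 14 to 20 reads at the summit and stood at 40.9% to 81.3% of their lists by q, against 54 to 57 reads and 5.60% to 8.21% in WT. At such heights a DKO peak is near the limit of what was called, and a missing peak is one that was not detectable at this depth.

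Within the body of Galnt9, 9 intronic regions between 28.1 and 37.1 kb were called in 1 to 3 libraries each, all of them WT libraries of day 9. The region next to them, chr5:110581762-110583879, was called in 11 WT and 4 DKO libraries, and 3 of the 4 DKO libraries were those of day 9. Its mean length there was 482 bp in DKO and 1334 bp in WT. Past the internal starts, chr5:110608549-110610625 was called in 12 WT and 4 DKO libraries, of which 3 were again those of day 9.

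By bases, 28003 bp of the Galnt9 locus were under a peak in at least 1 library. Of these 8103 bp were under a peak in all 12 WT libraries and 205 bp in all 12 DKO libraries. Bases in all 12 WT and no DKO library came to 686 bp, in 5 runs. The longest run was 285 bp, chr5:110541352-110541636, which begins with the second upstream stretch printed above, and 186 bp and 54 bp lay in the other upstream region.

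Of the 2 regions of Pnp2, the longer was called in most DKO libraries but was short there. The region at its start, chr14:50954668-50957922, was called in 12 WT and 10 DKO libraries, and the 2 without it were DKO day 6 replicates 1 and 3. It covered 1982, 2541, 2861 and 2540 bp on average in WT on days 0, 3, 6 and 9. In DKO it covered 602, 287 and 312 bp on days 0, 3 and 9, and 161 bp in the single library of day 6 that held it. The second region, chr14:50958097-50958883 in an intron, was called in 7 WT libraries, on days 3, 6 and 9, and in 1 DKO library.

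**Figure D4:**
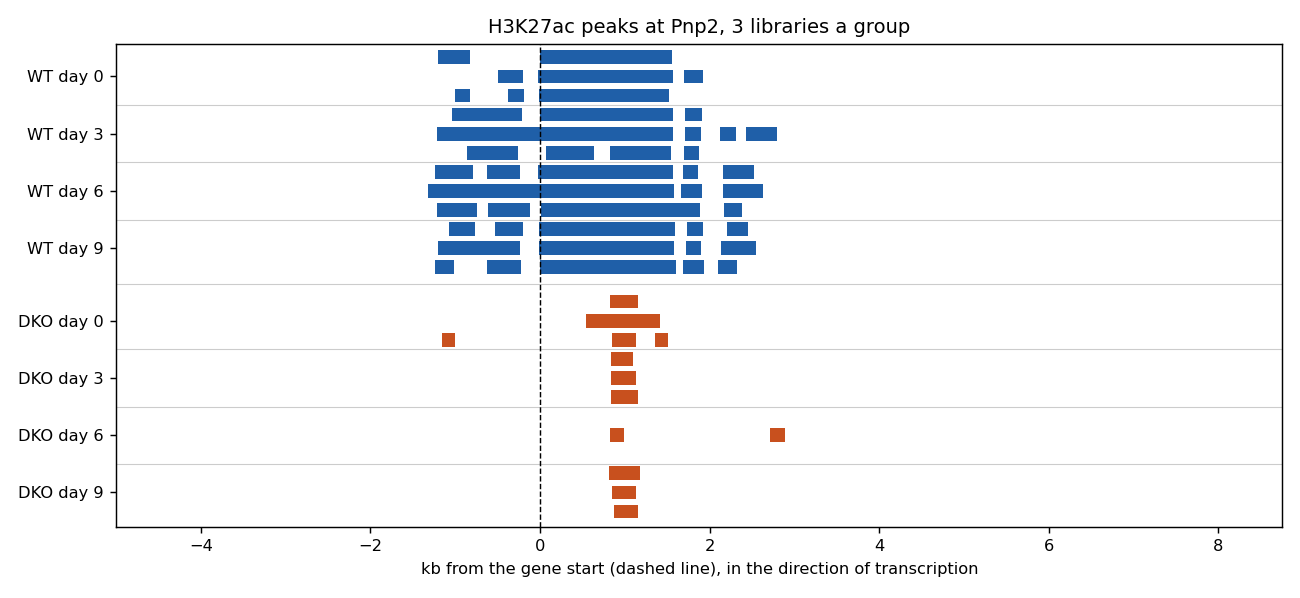
Peaks at Pnp2 along the locus, in kb from the gene start (horizontal axis), 1 row per library ordered by genotype and day. WT rows hold several peaks from about 1 kb before to 2 kb after the start, and the 10 DKO rows with a peak in this region hold one about 1 kb after the start, beside 2 more in DKO day 0 replicate 3.

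The part of this region that was left in DKO cells lay at the same place each time. The 10 DKO summits fell between 0.938 and 1.025 kb after the start, within 87 bp, whereas the 12 WT summits spread over 1698 bp, from −0.37 to 1.328 kb. A run of 245 bp, chr14:50956839-50957083, was under a peak in 9 or 10 DKO libraries and in all 12 WT libraries. Nearer to the start, a run of 475 bp from 0.070 to 0.545 kb, chr14:50956062-50956536, was under a peak in 12 WT and 0 DKO libraries. Upstream of the start, WT held 0.359 to 1.05 kb on average at the 4 days, and DKO libraries held none but for 0.155 kb in 1 library of day 0.

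The peaks that remained were of moderate height. The best fold at Pnp2 was 11.3 to 14.2 in WT and 6.68 to 10.7 in DKO libraries on day 0, 6.77 to 12.2 and 8.94 to 9.54 on day 3, and 11.2 to 13.8 and 8.30 to 10.6 on day 9. The libraries of day 3 overlapped in height, through WT day 3 replicate 2 with 6.77, while they did not overlap in length. That 6.77 was the fold of a peak in the second, intronic region, with 17 reads at the summit. In the region at the start, the lowest WT fold of day 3 was 6.58. The share of all genes without overlap in fold was not counted. In the region at the start, the peaks of highest −log10 q rested on 20 to 38 reads at the summit in DKO and 35 to 55 in WT libraries.

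Read placement limits Pnp2 more than the other genes. Pnp2 lies inside the annotated span of Pnp (chr14:50931082-50965237) and of the readthrough model Gm49342 (chr14:50944517-50963136), and the same peaks count for all 3. Of the 75-base windows of the Pnp2 locus, the read length of the study, 28.3% occur elsewhere in the genome, against 0.847% at Galnt9 and 0.354% at Slc6a6. Of the 3875 repeated windows, 3302 have all other copies within 100 kb of Pnp and 573 have a copy on another chromosome. In the 475-bp run without DKO peaks 21.9% of windows are repeated and in the 245-bp run that was kept 4.09%. How the authors' alignment placed reads from such windows was not tested.

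Slc6a6 had the most regions and the least contrast. Of its 34 regions, 18 were called in more WT than DKO libraries, 11 in more DKO libraries and 5 in equal numbers. WT libraries alone held 8, DKO libraries alone held 10, and both held 16. Of the 34, 14 were called in 1 library only. The shares of all regions in these classes were not counted. At no day was any of them called in 3 of 3 libraries of one genotype and 0 of 3 of the other. The regions of only one genotype were short and weak, with best folds of 3.75 to 4.71 for WT and 3.09 to 5.17 for DKO, while those of both reached 23.5.

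The 3 regions called in all 24 libraries lay at the start and in the gene body. The region at the start, chr6:91681693-91690803, is 9111 bp long. At its peak of highest −log10 q per library, the fold was 17.0 to 20.2 in WT and 21.1 to 23.5 in DKO libraries on day 0. On day 6 it was 12.3 to 16.1 and 8.68 to 10.7. Folds thus did not overlap at either day, and the order of the genotypes turned between them. The share of all regions whose folds did so was not counted. By covered length, 18.4% of all genes were higher in DKO on day 0 and 59.6% lower on day 6, without overlap. Among peaks of their lists, those of day 0 stood at 1.94% to 4.23% by q in WT and at 0.911% to 1.91% in DKO libraries. The 120 reads at the summit of DKO day 0 replicate 2 exceeded the 57 and 70 of the other DKO libraries of that day. The other 2, chr6:91709496-91721107 and chr6:91725864-91731300, are 11612 and 5437 bp long.

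**Figure D5:**
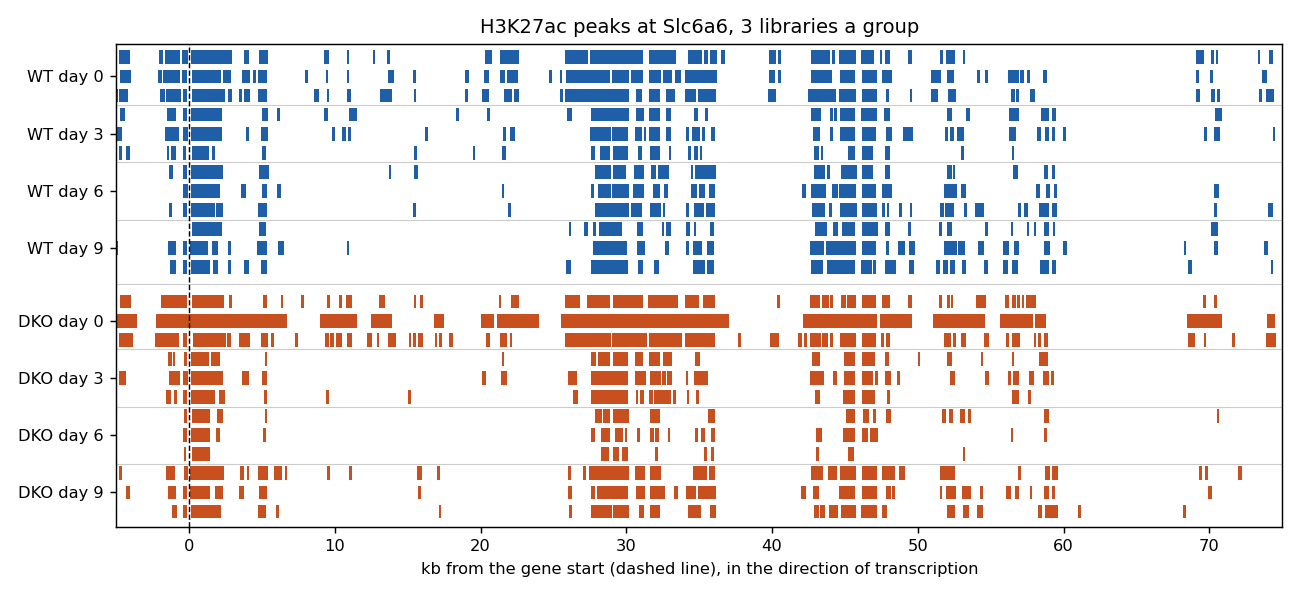
Peaks at Slc6a6 along the locus, in kb from the gene start (horizontal axis), 1 row per library ordered by genotype and day. Blocks at the start, at about 25 to 37 kb and past 40 kb recur in all rows, and the rows of day 0 are the most covered, that of DKO day 0 replicate 2 by 15 wide peaks.

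The difference between day 0 and the later days was uneven along Slc6a6, as read from a division made after the peaks were seen. Between 10 and 25 kb the covered length went from 2.59 ± 0.318 kb on day 0 to 0.939 ± 0.372, 0.344 ± 0.146 and 0.0517 ± 0.0895 kb on days 3, 6 and 9 in WT (SD, n = 3), and from 4.55 ± 2.68 to 0.336 ± 0.291, 0 and 0.413 ± 0.397 kb in DKO. Between 40 and 60 kb the WT means were 6.67, 4.67, 6.00 and 7.14 kb at the 4 days, and the libraries of days 0 and 9 overlapped. In DKO they were 9.51, 4.14, 2.12 and 6.56 kb there. At the first 10 kb the day 6 means were 2.84 ± 0.0945 kb in WT and 1.58 ± 0.355 kb in DKO.

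Of the regions that differed most in calls, chr6:91700829-91701543 was called in 0 WT and 4 DKO libraries, which were 2 of day 0 and 2 of day 9, with folds of 4.10 to 4.68. Toward the end of the gene, chr6:91752545-91754910 was called in 10 WT and 6 DKO libraries and chr6:91757363-91758643 in 7 WT and 2 DKO libraries, both over exons. Of the 56303 bp under any peak at Slc6a6, 4704 bp were under a peak in all 12 WT libraries and 2804 bp in all 12 DKO libraries. The bases of both sets came to 2124 bp, and 0 bp were in all WT and no DKO libraries.

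The neighbourhood was read to see how far the contrast reached. Within 200 kb on either side, 61 regions lay around Galnt9, 62 around Pnp2 and 45 around Slc6a6. Regions called in at least 9 WT and at most 2 DKO libraries numbered 1 around Galnt9 (chr5:110631287-110631833, 9 WT and 0 DKO libraries), 2 around Pnp2 and 0 around Slc6a6. Of all regions 0.167% met this criterion. Those of Pnp2 were chr14:50903737-50904679, called in 12 WT and 0 DKO libraries, and chr14:50946469-50947701 within Pnp, called in 10 WT and 0 DKO libraries. The reverse, at least 9 DKO and at most 2 WT, was found for none of them and for 0.0106% of all regions.

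The genes that start within 100 kb were compared in the same way. Fbrsl1, Noc4l and Ddx51 near Galnt9 overlapped between genotypes on day 0 and were lower in DKO without overlap on day 6, as 59.6% of all genes were, and Fbrsl1 was also lower on day 3 and Ddx51 on day 9, with 2.66 ± 0.266 kb in WT and 1.85 ± 0.159 kb in DKO (SD, n = 3). Around Pnp2, Tep1, Osgep, Apex1 and Pip4p1 were higher in DKO without overlap on day 0, as 18.4% of all genes were, while Pnp2 was lower. Lower in DKO without overlap were 10.8%, 59.6% and 2.08% of all genes on days 3, 6 and 9. Tep1, Apex1 and Rnase10 were lower in DKO without overlap on day 3, Osgep, Apex1, Pip4p1 and Rnase10 on day 6 and Pip4p1 on day 9, while Klhl33 overlapped at all 4 days. Pnp, the main purine nucleoside phosphorylase gene, held 7.99 ± 0.170 kb in WT and 7.42 ± 1.84 kb in DKO on day 0, with overlap, and 9.34 ± 0.526 and 3.41 ± 0.993 kb on day 6, without. It was lower in DKO without overlap on days 3 and 9 too, with means of 4.16 against 7.94 kb and 5.14 against 9.16 kb. Rnase9 and Rnase11 had no peaks, and Rnase12 and, next to Slc6a6, Grip2 had peaks in at most 2 libraries.

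Over the 24 libraries, the genes with the covered length most like that of each member, at least 200 kb away, were named by Pearson correlation. The libraries fall into 2 genotypes and 4 days that all genes share, so these values describe a shared pattern over groups. For Galnt9 the 5 genes were Gm49342 (r = 0.919), Scara3 (0.908), Pnp2 (0.907), Ear10 (0.892) and Gm8113 (0.892), all on chromosome 14, where Ear10 and Gm8113 lie side by side and hold the same peaks. Within the 12 WT libraries alone the correlation of Galnt9 and Pnp2 was 0.410, and within the 12 DKO libraries 0.708.

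For Pnp2 the 5 were Hmgn2 (r = 0.952), Ear10 and Gm8113 (0.926 each), Galnt9 (0.907) and Scara3 (0.893). For Slc6a6 they were Lyn (r = 0.988), Hs6st1 (0.987), Mrtfa (0.985), Cd44 (0.984) and Ppm1h (0.984), and without DKO day 0 replicate 2 these values were 0.971 to 0.977. Slc6a6 correlated at 0.211 with Galnt9 and 0.0418 with Pnp2 over 24 libraries, at −0.227 and −0.444 within WT, and at 0.758 and 0.917 within DKO libraries.

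The other genes of each pathway were counted from lists. Of 18 O-GalNAc transferase genes, the family of Galnt9, 14 were lower in DKO without overlap on day 6, where 59.6% of all genes were. On days 0, 3 and 9 this held for 0, 2 and 1 of them, and for 0.705%, 10.8% and 2.08% of all genes. Higher in DKO on days 0, 3, 6 and 9 were 18.4%, 0.856%, 0.0856% and 29.3% of all genes and 4, 1, 0 and 7 of these 18. The 18 genes had a median difference of −0.995 kb on day 6 against −0.532 kb over all genes. The largest differences were those of Galnt2 (−12.4 kb), Galnt17 (−6.15 kb), Galnt16 (−4.70 kb), Galnt18 (−3.19 kb) and Galnt13 (−2.91 kb), each smaller than that of Galnt9. Galnt2 held 22.9 ± 2.22 kb in WT and 10.5 ± 3.95 kb in DKO libraries (SD, n = 3). An exact permutation test of the 4 days within a genotype, with Benjamini-Hochberg adjustment over the 15183 genes, called 36.6% of all genes in WT and 54.0% in DKO cells at a threshold of 0.05, and 9 and 14 of these 18.

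Of 14 genes of purine salvage, the pathway of Pnp2, 11 were lower in DKO without overlap on day 6, beside the 59.6% of all genes. On days 0, 3 and 9 this held for 0, 2 and 1 of them, and for 0.705%, 10.8% and 2.08% of all genes. Higher in DKO on days 0, 3, 6 and 9 were 18.4%, 0.856%, 0.0856% and 29.3% of all genes and 3, 0, 0 and 6 of these 14. The largest differences were those of Nt5c2, a nucleotidase (−11.2 kb), Ampd3, which deaminates AMP (−9.09 kb), Adk, the adenosine kinase (−7.53 kb), Pnp, whose span holds the peaks of Pnp2 (−5.93 kb) and Gda, the guanine deaminase (−5.78 kb). The list median on day 6 was −2.58 kb, against −0.532 kb over all genes. The day test called 6 of the 14 in WT and 12 in DKO cells, beside 36.6% and 54.0% of all genes.

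Of 11 genes of taurine synthesis and transport or of related carriers, 8 were lower in DKO without overlap on day 6, again beside 59.6% of all genes. On days 0, 3 and 9 this held for 0, 2 and 1 of them, and for 0.705%, 10.8% and 2.08% of all genes. Higher in DKO on days 0, 3, 6 and 9 were 18.4%, 0.856%, 0.0856% and 29.3% of all genes and 1, 0, 0 and 4 of these 11. Those lower on day 6 included Lrrc8a, a subunit of the volume-regulated anion channel through which taurine leaves cells (−4.66 kb), the creatine carrier Slc6a8 (−2.11 kb), Fmo1, which makes taurine from hypotaurine (−1.37 kb), the betaine carrier Slc6a12 (−0.838 kb) and the glycine carrier Slc6a9 (−0.827 kb). Cdo1, the cysteine dioxygenase at the head of taurine synthesis, overlapped on day 6, with 5.87 ± 0.158 kb in WT and 5.92 ± 1.59 kb in DKO (SD, n = 3). The list median was −0.626 kb, close to the −0.532 kb over all genes, and the day test called 5 of the 11 in WT and 8 in DKO cells, beside 36.6% and 54.0% of all genes.

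Of 11 further white adipocyte genes, 8 held peaks in at least 3 libraries, and all 8 were lower in DKO without overlap on day 6, where 59.6% of all genes were. At days 0, 3 and 9 this held for 1, 2 and 1 of them, and for 0.705%, 10.8% and 2.08% of all genes. On day 9, 29.3% of all genes and 3 of these 8 were higher in DKO. The largest differences on day 6 were those of the matrix protease gene Adamts5 (−6.53 kb), Dpt, which encodes the matrix protein dermatopontin (−2.52 kb), the corepressor gene Nrip1 (−1.68 kb), the homeobox gene Hoxc8 (−1.46 kb) and Retn, which encodes resistin (−1.23 kb). Galnt9 and Pnp2 thus differed from most genes of these lists in being lower on days 0, 3 and 9 as well, which is the pattern they were named for. The day test called 4 of the 8 in WT and 5 in DKO cells, beside 36.6% and 54.0% of all genes.

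The sequence of the regions, which the choice of genes did not use, was last compared with that of all regions. In the 200 bp around the strongest summit, the GC content had a median of 50.5% in the 24 regions of Galnt9, 42.0% in the 2 of Pnp2 and 51.8% in the 34 of Slc6a6, against 48.0% in all 169358 regions, with quartiles at 43.5% and 52.5%. The AP-1 letters TGANTCA, searched on both strands as were the others, were found at 1 of the 60 regions, the one at the start of Pnp2, and at 5.66% of all regions. The C/EBP letters TTGCNNAA were found at 2 regions of Galnt9 and 3 of Slc6a6 (7.35% of all regions), and the glucocorticoid receptor letters ACANNNTGT at 2 and 2 (6.44%). The letters of EBF (TCCC and GGGA with 2 bases between them, 0.591%), NFI (TTGGC and GCCAA with 5 bases between, 0.0159%) and PPAR (AGGTCA repeated after 1 base, 0.0396%) were found at none of the 60. None of these 6 strings contains another. The 2 upstream stretches of Galnt9 printed above hold 0 and 1 CG pairs, whereas the stretch at the start of Slc6a6 holds 7.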

How the data were processed

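H3K27ac ChIP-seq was read in 24 libraries, 3 for each of WT and DKO on days 0, 3, 6 and 9, grouped by the sample labels. The authors' notes name bcl2fastq 2.17, cutadapt 1.18, BWA and MACS2 2.1.1.20160309, with mm10, and the study gives 75-base reads. Peaks were called by the authors in each library and not on pooled libraries, against input libraries whose files were not used here. The deposited lists hold, per peak, a position and summit, a display score, a fold (the height over the local background, a ratio), and −log10 values of p and q, all as MACS2 wrote them by the authors' run. The depth in reads is not in the lists. The authors' fold and −log10 p were used to recover whole reads at each summit, which gave whole numbers (tolerance 0.001) for all peaks of 23 lists, with medians of 17 to 28 reads, and for 82.6% of those of WT day 3 replicate 3, whose reads were left out. The calling limit (lowest −log10 q of 2.00 to 2.05) makes a missing peak one not called at this depth.

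For each of 21911 protein-coding genes of GENCODE M21, the length under peaks over the gene and 5 kb upstream (20 kb for Galnt9) was taken per library, and 15183 genes with peaks in at least 3 libraries were kept. Sequences and annotation are of GRCm38, and sequences are RefSeq's. Days were compared within a genotype over all genes by an exact permutation test of the sum of squares between days (15400 divisions, smallest p 6.49e-05). Its p-values had Benjamini-Hochberg adjustment, in Python 3.11.15 with NumPy 2.4.6, pandas 2.3.3 and SciPy 1.17.1. On simulated data the test called nothing without a change and found most genes when very many changed over all days, but found none when a few changed on 1 day alone, so that a gene not called may still have changed. It was planned for the 3 genes too and is not given for them, since the values that chose them were by genotype and day. Of 276 pairs of lists, 0 were identical. The members and lists were chosen with earlier results of these data known. Other genes were named by fixed rules: the 5 largest day 6 differences among the lower genes of a list, the 5 most correlated genes at least 200 kb away and covered in at least 12 libraries, and genes within 100 kb; Cdo1 was named after its values were seen. Regions were named by the same kind of rule (that at the start, that of best median rank by q and the 3 with the largest difference in libraries), and the other regions given, and the division of each locus, were chosen after their values were seen. Alternatives changed the peak limit, the window, the upstream part, the libraries and the scaling to total covered length, the last and the leaving out of DKO day 6 replicate 3 being added after the data were seen.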

Additional observations from a re-analysis of the deposited data

How the results depend on the processing

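The mean over days of DKO minus WT stayed negative at Galnt9 and Pnp2 under every alternative run. At Galnt9 it was −10.6 kb, and −8.89 kb over the 20000 peaks of highest −log10 q, −5.18 kb within 250 bp of summits and −8.26 kb without the upstream part. At Pnp2 it was −2.36 kb, and −1.87, −1.29 and −1.62 kb in the same order, and −3.48 kb with 20 kb upstream of every gene. Leaving out libraries gave −11.0 to −10.1 kb at Galnt9, −2.48 to −2.21 kb at Pnp2 and −1.59 to 1.26 kb at Slc6a6, whose value of 0.0361 kb thus had no fixed sign; −1.59 kb was that without DKO day 0 replicate 2. With all values scaled to total covered length, Galnt9 and Pnp2 stayed lower in DKO without overlap on each day.

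Genes past the day test numbered 5551 in WT and 8197 in DKO. They were 1035 and 1191 with the 20000 peaks, 1711 and 2645 within 250 bp of summits, and, leaving out libraries, 0 to 5665 in WT and 0 to 10340 in DKO. The counts of 0 are those without a whole replicate number, where the divisions of 8 libraries allow no exact p below 0.00952; in the full exact permutation test 7492 and 9751 genes had an unadjusted p under 0.05. Without DKO day 6 replicate 3 the DKO count was 4635. With the replicate number as a replicate block (576 divisions) the counts were 546 and 5454. The deviations of same-numbered libraries correlated above 0.1 in 4 of 12 pairs of genotypes and in 7 of 18 pairs of days in WT, and not in every pair, so the numbers were not taken to pair the libraries. In DKO this was so in 11 of 18 pairs of days, with a median of 0.588, against 16 of 36 and −0.526 for different numbers.

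Genes lower and higher in DKO without overlap on day 6 numbered 4373 and 161 with the 20000 peaks, 3569 and 325 within 250 bp, and 2185 and 5733 when scaled. The regions in 3 WT and 0 DKO libraries of day 6 numbered 7 at Galnt9, 4 with −log10 q of at least 5 and 2 with the 20000 peaks, and 0 at Pnp2, 1 with the 20000 peaks and 1 where peaks were joined at 100 bp of overlap. With the 20000 peaks the day 6 libraries of Slc6a6 overlapped (WT 3.28 to 5.15 kb, DKO 1.55 to 3.36 kb), and within 250 bp those of Pnp2 on day 0 did (1 to 1.5 kb and 0.5 to 1.402 kb).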

Other observations

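The 12 regions called in all 12 WT and at most 1 DKO libraries lay on 4 chromosomes, with 4 on chromosome 5, 4 on chromosome 11, 2 on chromosome 14 and 2 on chromosome 4. Those of chromosome 4 lay at Hmgn2 (chr4:133966170-133967282 and chr4:133967641-133968684). Of the 7 called in no DKO library, the others besides the one upstream of Galnt9 were chr5:74904783-74905920, chr11:55768439-55770220, chr11:56288968-56290729 and chr14:50903737-50904679.

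Scara3, which encodes a scavenger receptor-like protein and was named for its likeness to Galnt9, held 1.35 to 4.48 kb in the WT libraries and 0.155 to 2.56 kb in those of DKO. Ear10, which encodes an eosinophil-associated ribonuclease, held 0.542 to 0.869 kb and 0.162 to 0.64 kb. Over the 12 WT libraries alone, which fall into the same days, the Pearson correlation with Galnt9 was 0.714 for Scara3 and 0.221 for Ear10, and over the 12 DKO libraries 0.887 and 0.733.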
